A study of Amaranthus hybridus and Amaranthus hypochondriacus with 18 samples.

Results

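The 2 transcripts described here are aminotransferases of leaves of *A. hypochondriacus* that use alanine: alanine aminotransferase 2 (AhypoNutrisol_DN7703_c0_g2_i1) and alanine-glyoxylate aminotransferase 2 homolog 1 (AhypoNutrisol_DN27375_c0_g1_i1). They were taken by identifier, as 2 of the 30946 transcripts in the count table of this species and of the 61101 in both tables of the study, and their names are those of the study's own annotation. The study sequenced RNA from leaves of the wild type of *A. hypochondriacus* cv. Nutrisol and of *A. hybridus* in 18 libraries, with 3 biological replicates in each of 3 groups per species. Each replicate pooled leaves of 3 plants, and treatments began at the age of a month and ran for 14 days. The paper reports randomized complete blocks, but not whether replicate numbers mark them. Weak correlations between same-numbered libraries, given below, cannot exclude this. Control plants were watered throughout. Salt plants received 100 ml of NaCl solution daily, at 0.15 M for 7 days, 0.3 M for 4 days and 0.5 M for 3 days. Water deficit plants were not watered. Each stress was compared with the same 3 control libraries, and the 2 stresses were compared with each other. Both comparisons with control therefore share their controls.

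An aminotransferase moves an amino group from an amino acid to a keto acid. Alanine aminotransferase interconverts alanine and 2-oxoglutarate with pyruvate and glutamate. Amaranths are C4 plants of the NAD-malic enzyme type, in which carbon captured by phosphoenolpyruvate carboxylase in the mesophyll travels to the bundle sheath as aspartate and returns as alanine, so that aspartate and alanine aminotransferases form part of the carbon cycle. Alanine-glyoxylate aminotransferase 2 enzymes, known from *Arabidopsis* and from animals, are mitochondrial enzymes that pass the amino group of alanine or of beta-alanine to glyoxylate or pyruvate.

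The 2 transcripts moved in opposite directions in *A. hypochondriacus*. Alanine aminotransferase 2 fell 4.27-fold under salt and 10.5-fold under water deficit, whereas alanine-glyoxylate aminotransferase 2 homolog 1 rose 2.86-fold under salt and 3.36-fold under water deficit. Levels are given in counts-per-million (CPM) with TMM scaling, which sets each library's total by the bulk of its tested transcripts. A transcript was called changed at an FDR below 0.01 and an absolute log2 fold change (log2FC) above 1 in edgeR's quasi-likelihood test over 12429 tested transcripts. By that rule 10.1% of them were called under salt, 9.70% under water deficit and 4.10% between the stresses. The *A. hypochondriacus* libraries held 10920861 to 20529277 counts, of which the 20 most abundant transcripts took 92.7% to 97.1%. The 510 calls between the stresses became 106 to 282 without any of the salt libraries, water deficit 1 or water deficit 3 and 982 without water deficit 2, and the 1206 under water deficit became 789 without water deficit 3. The library water deficit 2 was the shallowest. It also lay closest to the control mean, of the 3 water deficit libraries, for 57.8% of the 864 transcripts called lower under water deficit and for 59.6% of the 342 called higher.

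Alanine aminotransferase 2 was measured at 82.1, 130 and 133 CPM in control 1, 2 and 3. Under salt it stood at 28.0, 31.2 and 21.6 CPM, and under water deficit at 8.02, 16.7 and 8.80 CPM. No library of 1 group overlapped with another: every control library lay above every salt library, and every salt library above every water deficit library. Behind these levels were 975, 1820 and 1605 counts in control, 612, 1155 and 399 under salt, and 101, 123 and 201 under water deficit. The mean was 115 ± 28.7 CPM (SD, n = 3) in control, 26.9 ± 4.93 CPM (n = 3) under salt and 11.2 ± 4.81 CPM (n = 3) under water deficit.

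The fall under salt had a log2FC of -2.10 ± 0.29 (SE) and an FDR of 4.59e-05. In the same comparison 6.61% of tested transcripts were called lower, and 20.6% had all salt libraries below all control libraries. A lower log2FC was found for 277 of the 12429 tested transcripts. Under water deficit the log2FC was -3.39 ± 0.31 (FDR = 6.94e-07), against a background of 6.95% called lower and 18.1% without overlap, and 74 transcripts lay lower still. In leaf tissue, fewer cells of the type that holds a transcript and less of its RNA per cell cannot be told apart.

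Alanine aminotransferase 2 was also lower under water deficit than under salt, 2.45-fold, with a log2FC of -1.29 ± 0.29 (FDR = 0.00827) where 2.36% of tested transcripts were called lower and 15.6% had no overlap in that direction. This call was close to the threshold. Its FDR lay between 0.0140 and 0.0632 when control 2, control 3, any of the salt libraries, water deficit 1 or water deficit 3 was left out, with log2FC from -1.43 to -1.09. Without water deficit 2, which held the highest level of its group, the difference grew to -1.68 (FDR = 0.000118). The falls against control remained called whichever library was left out, from -2.29 to -1.97 under salt and from -3.76 to -3.18 under water deficit.

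Trinity, the assembler, gave the cluster label DN7703 to 4 transcripts of the table, of which 2 share the component c0. A component groups assembled sequences that overlap, such as variants or close copies. The other transcript of c0, AhypoNutrisol_DN7703_c0_g3_i1, carried the same description and moved with the first transcript. Its levels were 12.1, 25.5 and 17.2 CPM in control, 5.35, 4.79 and 4.05 CPM under salt, and 0.794, 2.04 and 2.10 CPM under water deficit, again without overlap between groups. It fell by 1.95 on the log2 scale under salt (SE 0.27, FDR = 5.20e-05) and by 3.46 under water deficit (SE 0.32, FDR = 8.02e-07), and was lower by a log2FC of -1.51 ± 0.32 (FDR = 0.00619) under water deficit than under salt. The last call was lost without control 3, any of the salt libraries, water deficit 1 or water deficit 3.

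Counts of the first transcript stood to counts of this other transcript at 6.77, 5.11 and 7.75 to 1 in control, 5.23, 6.53 and 5.32 to 1 under salt, and 10.1, 8.20 and 4.19 to 1 under water deficit. These ratios overlapped between all groups, while the levels of both transcripts did not. Since reads that fitted more than 1 place were not counted, the split of shared sequence between them was not measured. The remaining transcripts of the cluster, AhypoNutrisol_DN7703_c1_g1_i1 and AhypoNutrisol_DN7703_c2_g1_i1 of the components c1 and c2, had 0 to 7 counts per library and were not tested.

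**Figure D1:**
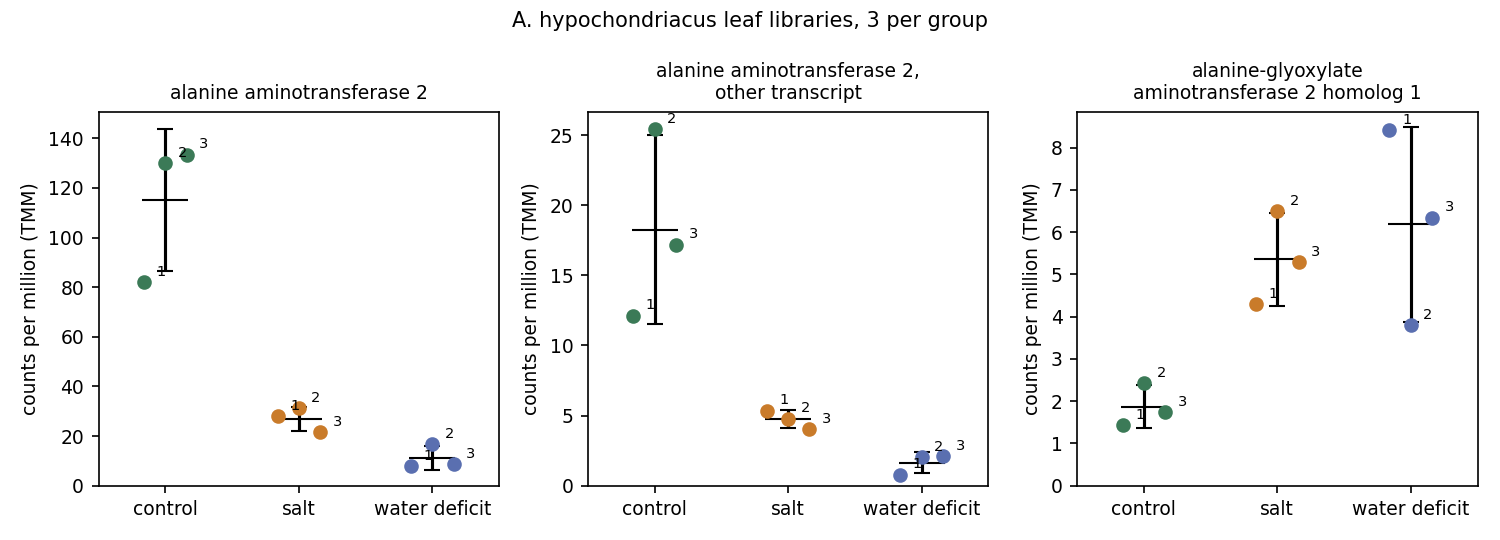
Level in each *A. hypochondriacus* library of alanine aminotransferase 2, of the other transcript with that description and of alanine-glyoxylate aminotransferase 2 homolog 1, in CPM with TMM scaling (y axes start at 0), for control, salt and water deficit. Points are libraries with their replicate number, horizontal marks are means and bars are SD (n = 3); the first transcript descends from 115 to 26.9 and 11.2 CPM, and the last climbs from 1.87 to 5.36 and 6.19 CPM.

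Alanine-glyoxylate aminotransferase 2 homolog 1 was a transcript of low count. It stood at 1.43, 2.43 and 1.74 CPM in control 1, 2 and 3, from 17, 34 and 21 counts. Salt libraries had 4.30, 6.49 and 5.29 CPM, from 94, 240 and 98 counts. Water deficit libraries had 8.42, 3.81 and 6.35 CPM, from 106, 28 and 145 counts. All 6 stressed libraries were above all 3 control libraries, whereas the salt and water deficit libraries overlapped. Group means were 1.87 ± 0.511 CPM in control, 5.36 ± 1.10 CPM under salt and 6.19 ± 2.31 CPM under water deficit (SD, n = 3).

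The rise was 1.51 ± 0.27 in log2FC under salt (FDR = 0.000674), where 3.53% of tested transcripts were called higher and 18.4% had no overlap in that direction. Under water deficit it was 1.75 ± 0.28 (FDR = 0.000244), beside 2.75% called higher and 14.0% without overlap. A higher log2FC was found for 350 transcripts under salt and for 250 under water deficit. Both calls held when any 1 of the 9 libraries was left out, with log2FC of 1.34 to 1.78 under salt (highest FDR 0.00989) and 1.51 to 2.02 under water deficit (highest FDR 0.00382). Neither rise reaches an absolute log2FC of 2.

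Between the stresses, alanine-glyoxylate aminotransferase 2 homolog 1 differed by a log2FC of 0.23 ± 0.23 (FDR = 0.568), which was not called. The 95% interval ran from -0.26 to 0.73, so these libraries leave room for a level under water deficit somewhat lower or up to 1.66-fold higher than under salt. The order of levels was therefore control lowest, with salt and water deficit not separated. For alanine aminotransferase 2 it was, from high to low, control, salt and water deficit, with the last step close to the threshold.

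Within a library, the ratio of the 2 counts does not depend on scaling. There were 57.4, 53.5 and 76.4 counts of alanine aminotransferase 2 for each count of alanine-glyoxylate aminotransferase 2 homolog 1 in control. The ratio was 6.51, 4.81 and 4.07 under salt and 0.953, 4.39 and 1.39 under water deficit. Because transcript lengths were not at hand, the ratio compares groups and not the abundance of the 2 transcripts. On the log2 scale, with 0.5 added to each count, its mean was 5.91 ± 0.27 in control, 2.33 ± 0.34 under salt and 0.84 ± 1.14 under water deficit (SD, n = 3). It differed from control by -3.59 log2 units under salt, a 12.0-fold fall, and by -5.08 under water deficit, a 33.7-fold fall. Water deficit 2 fell within the range of the salt libraries, and without it the water deficit mean was apart from control by -5.71. The ratio is a description of these libraries and was given no test.

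**Figure D2:**
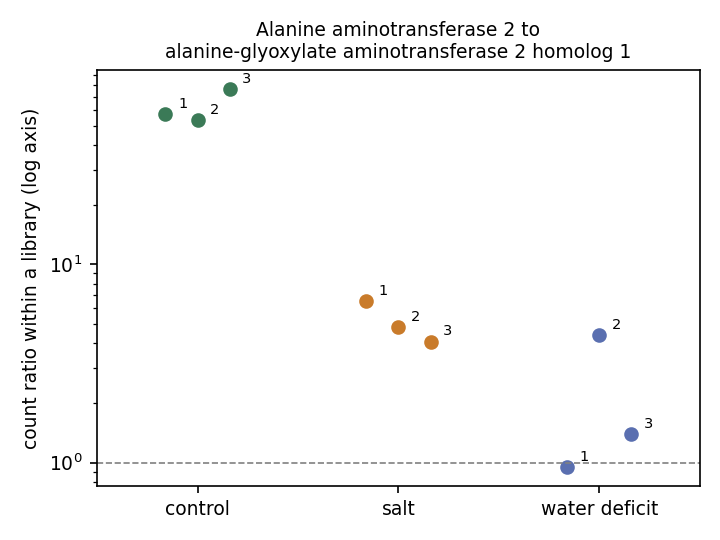
Counts of alanine aminotransferase 2 divided by counts of alanine-glyoxylate aminotransferase 2 homolog 1 in each of the 9 *A. hypochondriacus* libraries, on a log axis, by group; points carry their replicate number and the dashed line marks equal counts. Control libraries lie at 53.5 to 76.4, salt libraries at 4.07 to 6.51 and water deficit libraries at 0.953 to 4.39.

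**Figure D3:**
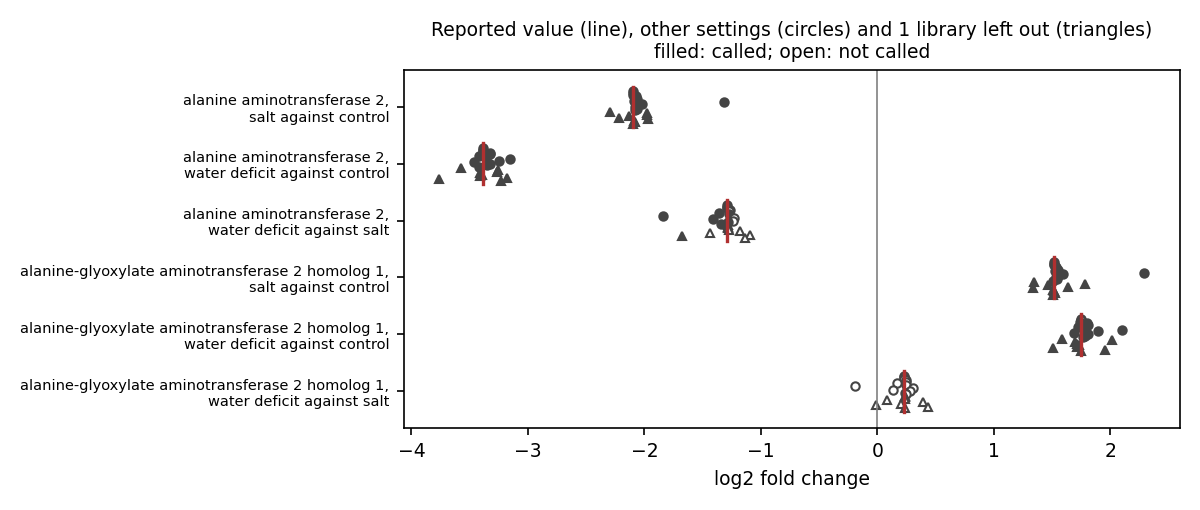
The log2FC (x axis) of each of the 2 transcripts in the 3 comparisons under every way of processing that was tried. The red line is the value reported, circles are 13 other settings and triangles are fits with 1 of the 9 libraries left out; filled symbols are called and open symbols are not, and the circles for a limit of 2 and for an FDR of 0.05 lie on the line. The circles far from the line in both salt comparisons, at -1.31 and 2.29, are scaled by library totals alone.

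The list of other aminotransferases held 6 transcripts that the study's annotation describes as aminotransferases, all tested. Among the 6 is AhypoNutrisol_DN7703_c0_g3_i1, the other transcript described as alanine aminotransferase 2, which was called lower in all 3 comparisons. Whether it comes from the same gene as the first was not checked, so its calls may not be separate from those of the first. This list and the following ones come from the study's annotation of changed transcripts and of orthologs. The study picked most of them on the same libraries, so their calls are not independent of these data. Under salt 1 of the 6 rose and 3 fell, and under water deficit 1 rose and 5 fell. Their median log2FC was -0.82 and -1.90, beside medians of -0.0027 and 0.0080 over all tested transcripts. Of all tested transcripts 3.53% were called higher and 6.61% lower under salt, and 2.75% and 6.95% under water deficit. Between the stresses 3 of the 6 were lower under water deficit, where 2.36% of tested transcripts were called lower. The other 3 were not called, and the median of the list was -1.19. Of the 3 called lower, no more than 1 was called when control 3, salt 1, salt 2, water deficit 1 or water deficit 3 was left out.

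Aspartate aminotransferases are partners of alanine aminotransferase in the C4 cycle, and their listed transcripts were among those that fell under water deficit. Whether these transcripts and alanine aminotransferase 2 are of the C4 forms was not checked. The transcript for the cytoplasmic enzyme (AhypoNutrisol_DN4674_c0_g1_i1) stood at 33.0, 48.1 and 47.3 CPM in control. Its levels were 18.3, 15.3 and 10.0 CPM under salt and 3.10, 8.70 and 4.11 CPM under water deficit. It resembled alanine aminotransferase 2 in having no overlap between the groups and falling in steps, by 1.55 on the log2 scale under salt (SE 0.30, FDR = 0.00109) and by 3.07 under water deficit (SE 0.33, FDR = 3.68e-06). The call under salt was lost without control 2, control 3 or salt 3.

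For the mitochondrial aspartate aminotransferase (AhypoNutrisol_DN1435_c0_g1_i1), levels were 13.0, 20.9 and 18.4 CPM in control and 12.1, 13.7 and 13.6 CPM under salt, which overlapped. Under water deficit they were 2.46, 2.17 and 3.06 CPM, below all libraries of the other groups. Its log2FC was -0.41 ± 0.19 under salt (FDR = 0.142, not called) and -2.73 ± 0.22 under water deficit (FDR = 2.15e-07). The step from salt to water deficit was -2.31 ± 0.22 (FDR = 1.23e-05), and the water deficit libraries lay below all salt libraries.

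Glutamate-glyoxylate aminotransferase 2 and serine-glyoxylate aminotransferase supply glycine from glyoxylate in photorespiration. The former (AhypoNutrisol_DN6608_c0_g1_i1) fell from 29.5 ± 1.29 CPM in control to 12.6 ± 0.938 CPM under salt (log2FC -1.23 ± 0.20, FDR = 0.000306). It fell to 14.3 ± 3.94 CPM under water deficit (log2FC -1.03 ± 0.20, FDR = 0.00162), a call that was lost without control 2, control 3 or water deficit 2. For serine-glyoxylate aminotransferase (AhypoNutrisol_DN4434_c0_g1_i1) the level was 30.9 ± 0.930 CPM in control and 26.9 ± 2.09 CPM under salt (log2FC -0.20 ± 0.23, FDR = 0.601, not called). It fell to 14.9 ± 6.42 CPM under water deficit (log2FC -1.07 ± 0.24, FDR = 0.00410), a call that did not hold without any of the controls, water deficit 1 or water deficit 3.

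Branched-chain amino acid aminotransferase 2 (AhypoNutrisol_DN23247_c0_g1_i1), which acts on leucine, isoleucine and valine, was the 1 aminotransferase of the list to rise. It had 0.168, 0.715 and 0.748 CPM in control, 2.70, 1.84 and 2.54 CPM under salt and 3.81, 2.17 and 2.10 CPM under water deficit. The log2FC was 2.05 ± 0.38 under salt (FDR = 0.000804) and 2.26 ± 0.39 under water deficit (FDR = 0.000489), with the stressed libraries above the controls and overlapping each other. In direction and in the overlap of the stresses it resembled alanine-glyoxylate aminotransferase 2 homolog 1.

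The list for the C4 acid cycle and phosphoenolpyruvate had 6 transcripts, of which 5 were tested. Under salt 4 fell and 1 rose, with a median log2FC of -1.37. Under water deficit 3 fell, none rose and 2 were not called, with a median of -3.38. The shares over all tested transcripts were 6.61% lower and 3.53% higher under salt, and 6.95% lower and 2.75% higher under water deficit. The carbonic anhydrases hydrate carbon dioxide for phosphoenolpyruvate carboxylase. Carbonic anhydrase 2 (AhypoNutrisol_DN8198_c0_g1_i1) went from 100 ± 31.1 CPM in control to 46.0 ± 11.6 CPM under salt (log2FC -1.12 ± 0.26, FDR = 0.00522) and to 3.27 ± 0.581 CPM under water deficit (log2FC -4.96 ± 0.32, FDR = 1.98e-08). Beta carbonic anhydrase (AhypoNutrisol_DN746_c0_g1_i1) fell by 2.33 on the log2 scale under salt (SE 0.32, FDR = 5.20e-05) and by 4.67 under water deficit (SE 0.46, FDR = 1.49e-06), where it had 1, 7 and 10 counts.

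Phosphoenolpyruvate carboxylase (AhypoNutrisol_DN8278_c0_g3_i1), the enzyme that fixes carbon into the C4 acids, had 150, 176 and 227 CPM in control, 70.4, 82.9 and 60.4 CPM under salt and 13.2, 25.7 and 14.4 CPM under water deficit. Its log2FC of -1.37 ± 0.27 under salt (FDR = 0.00161) and -3.38 ± 0.30 under water deficit (FDR = 5.03e-07) gave the same order of groups as alanine aminotransferase 2, without overlap. In both transcripts water deficit 2 was the highest library of its group. The call of carbonic anhydrase 2 under salt was lost without control 2, control 3 or any of the salt libraries (highest FDR 0.0416), and that of phosphoenolpyruvate carboxylase without control 3 or salt 3 (highest FDR 0.0138). Under water deficit 5 were called lower without control 1 or without water deficit 2, as NAD-dependent malic enzyme and the phosphoenolpyruvate/phosphate translocator, which then passed the filter on low counts, joined the 3.

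The other 2 tested transcripts of the C4 list did not follow that order. In the C4 cycle NAD-dependent malic enzyme releases the carbon dioxide in the bundle sheath and yields the pyruvate that alanine aminotransferase converts to alanine. As for the other transcripts of the list, whether the transcript of that description (AhypoNutrisol_DN7973_c0_g1_i1) is of the C4 form was not checked. This transcript stood at 15.3, 21.5 and 20.4 CPM in control, 44.8, 46.1 and 42.9 CPM under salt and 8.18, 11.3 and 10.2 CPM under water deficit. It rose under salt (log2FC 1.23 ± 0.19, FDR = 0.000195), while its log2FC of -0.96 ± 0.20 under water deficit (FDR = 0.00239) missed the limit on size and was called without control 1 or water deficit 2. The difference between the stresses was -2.18 ± 0.20 (FDR = 1.04e-05).

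Phosphoenolpyruvate carboxylase kinase 2-like (AhypoNutrisol_DN6327_c0_g1_i1), whose relatives phosphorylate and so activate the carboxylase, had its lowest level under salt. It stood at 31.0, 35.6 and 29.5 CPM in control, 4.48, 4.52 and 3.24 CPM under salt and 21.4, 10.5 and 17.0 CPM under water deficit. The log2FC was -2.96 ± 0.25 under salt (FDR = 1.82e-07), -0.96 ± 0.23 under water deficit (FDR = 0.00637, not called for its size) and 2.00 ± 0.24 between the stresses (FDR = 0.000139). The phosphoenolpyruvate/phosphate translocator (AhypoNutrisol_DN21930_c0_g1_i1) had 4, 16 and 12 counts in control, 0 in each salt library and 1, 2 and 0 under water deficit, and was below the filter on low counts.

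**Figure D4:**
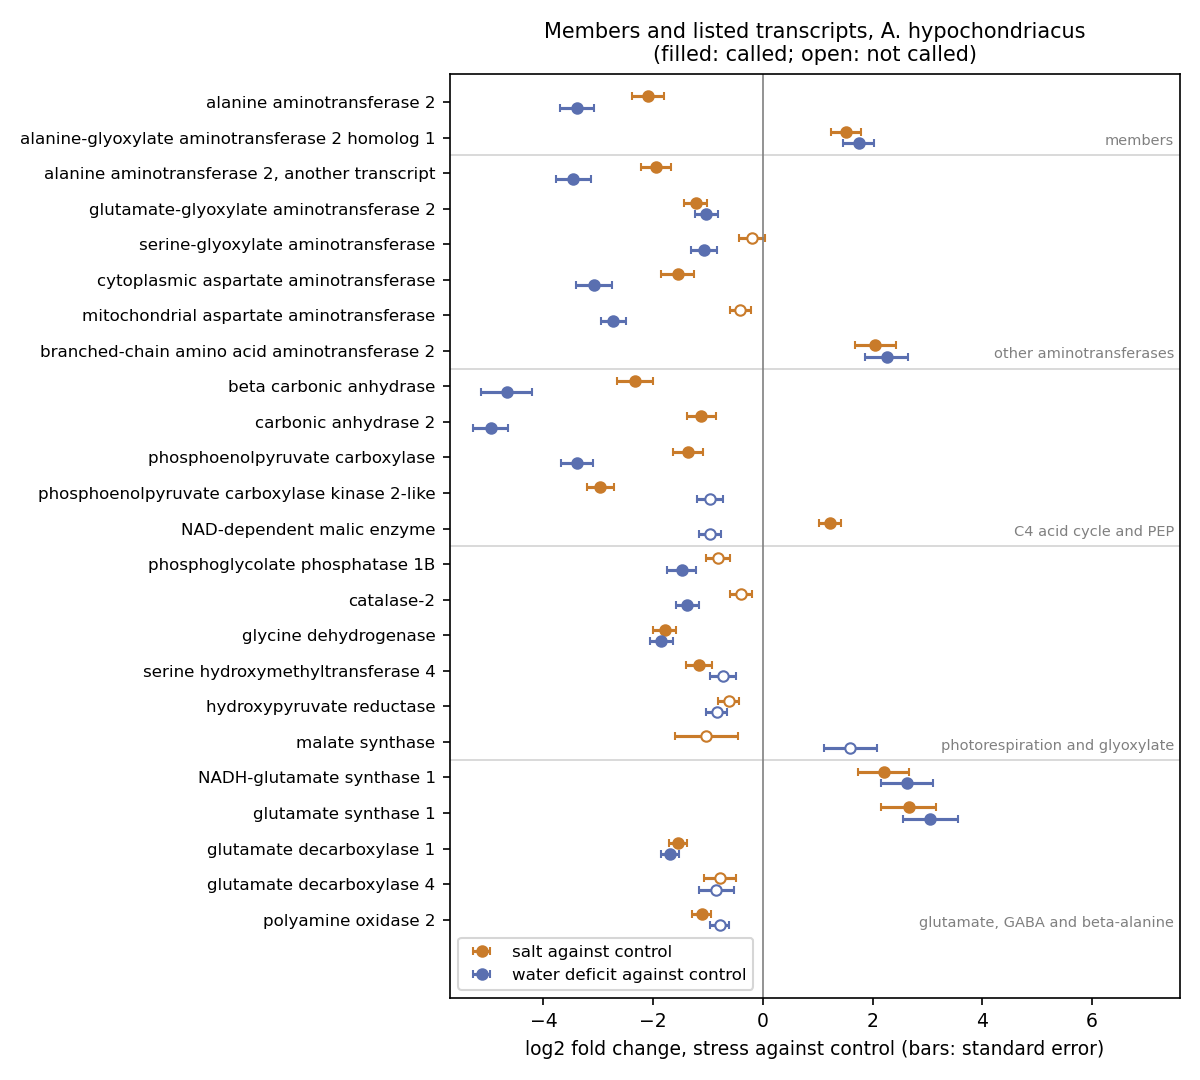
The log2FC of salt (orange) and water deficit (blue) against control for the 2 transcripts and the 22 tested transcripts of the 4 lists, in *A. hypochondriacus*; bars are the standard error, filled points are called and open points are not, and grey lines part the lists. Alanine aminotransferase 2 lies at -2.10 and -3.39 and alanine-glyoxylate aminotransferase 2 homolog 1 at 1.51 and 1.75.

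Photorespiration and the glyoxylate cycle make and use the glyoxylate that alanine-glyoxylate aminotransferases can accept. Of 6 listed transcripts, all tested, 2 fell and none rose under salt (median log2FC -0.92). Under water deficit 3 fell and none rose (median -1.11). Beside this, 6.61% and 6.95% of all tested transcripts were called lower under salt and water deficit, and 3.53% and 2.75% higher. Glycine dehydrogenase (AhypoNutrisol_DN8281_c0_g1_i1), a subunit of the mitochondrial glycine cleavage system, fell under both, from 140 ± 7.70 CPM to 40.5 ± 3.03 CPM under salt (log2FC -1.79 ± 0.21, FDR = 9.59e-06) and 38.8 ± 5.29 CPM under water deficit (log2FC -1.85 ± 0.21, FDR = 8.17e-06). Serine hydroxymethyltransferase 4 (AhypoNutrisol_DN7849_c0_g1_i1) interconverts glycine and serine, and the paper places the enzyme in one-carbon metabolism. Whether it is of a photorespiratory form was not checked. The transcript fell under salt (log2FC -1.17 ± 0.24, FDR = 0.00171), a call that was lost without control 2, control 3, salt 1 or salt 2. Its log2FC was -0.72 ± 0.24 under water deficit (FDR = 0.0407, not called) and 0.44 ± 0.24 between the stresses (FDR = 0.249).

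Under water deficit catalase-2 (AhypoNutrisol_DN7634_c0_g1_i1), which removes peroxisomal hydrogen peroxide, fell by 1.37 on the log2 scale (SE 0.21, FDR = 0.000128). Phosphoglycolate phosphatase 1B (AhypoNutrisol_DN5124_c0_g1_i1), the first enzyme of photorespiration, fell by 1.48 (SE 0.26, FDR = 0.000566), except without water deficit 3. Hydroxypyruvate reductase (AhypoNutrisol_DN8125_c0_g2_i1) was not called under either stress, at -0.62 ± 0.19 under salt (FDR = 0.0237) and -0.84 ± 0.19 under water deficit (FDR = 0.00457). Malate synthase (AhypoNutrisol_DN20100_c0_g1_i1), which joins glyoxylate to acetyl-CoA, was called between the stresses only, with 0.823, 0.758 and 0.756 CPM under salt and 9.45, 1.63 and 3.06 CPM under water deficit (log2FC 2.62 ± 0.49, FDR = 0.00255), where 1.75% of tested transcripts were called higher and 12.9% had no overlap in that direction. That call was lost without any of the salt libraries or water deficit 1. Without water deficit 2 malate synthase was called higher than control as well, and 5 of the 6 transcripts were called, 1 higher and 4 lower.

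The last list held 5 transcripts, all tested, that make or use glutamate, gamma-aminobutyric acid (GABA) or the precursors of beta-alanine. Under salt 2 rose and 2 fell, and under water deficit 2 rose and 1 fell, with medians of -0.78 under both. Among all tested transcripts 3.53% were called higher and 6.61% lower under salt, and 2.75% and 6.95% under water deficit. The 2 risers of the list were described as glutamate synthases, which make glutamate from glutamine and 2-oxoglutarate. Whether these 2 transcripts come from separate genes was not checked. NADH-glutamate synthase 1 (AhypoNutrisol_DN4539_c0_g1_i1) had 1.94, 1.07 and 1.33 CPM in control, 7.95, 6.52 and 5.40 CPM under salt and 10.6, 1.63 and 12.9 CPM under water deficit. Glutamate synthase 1 (AhypoNutrisol_DN7123_c0_g2_i1) had 2.19, 1.86 and 2.91 CPM in control, 14.0, 14.6 and 15.4 CPM under salt and 29.7, 2.99 and 23.8 CPM under water deficit. In both transcripts water deficit 2 stood near the controls, and apart from water deficit 1 and 3.

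Their log2FC was 2.21 ± 0.47 (FDR = 0.00249) and 2.66 ± 0.50 (FDR = 0.000967) under salt, and 2.63 ± 0.47 (FDR = 0.000622) and 3.05 ± 0.51 (FDR = 0.000332) under water deficit. Neither was called under salt without control 1 or without control 2, and the first was not called under salt without control 3 or salt 1, nor under water deficit without control 2. Glutamate decarboxylase 1 (AhypoNutrisol_DN4191_c0_g1_i1), which makes GABA from glutamate, fell from 14.8 ± 0.307 CPM to 5.05 ± 0.418 CPM under salt (log2FC -1.55 ± 0.16, FDR = 2.20e-06) and 4.56 ± 0.183 CPM under water deficit (log2FC -1.70 ± 0.17, FDR = 1.74e-06), and glutamate decarboxylase 4 (AhypoNutrisol_DN5089_c0_g1_i1) was not called under either. Polyamine oxidase 2 (AhypoNutrisol_DN7794_c0_g1_i1), whose relatives oxidise polyamines, fell under salt (log2FC -1.12 ± 0.17, FDR = 0.000148) and had a log2FC of -0.78 ± 0.17 under water deficit (FDR = 0.00378, not called). No transcript of this list was called between the stresses.

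The transcripts with the pattern most like that of each of the 2 were sought by Pearson's r of log2 CPM over the 9 libraries. The search left out the 2, the listed transcripts and those of the same Trinity clusters. It covered 495 other described and tested transcripts. Groups and libraries are shared by all of them, so r describes likeness only. The candidates came from the study's tables of transcripts that it called changed under salt in these libraries. For alanine aminotransferase 2 the closest 5 had r from 0.992 to 0.997: chloroplastic glyceraldehyde-3-phosphate dehydrogenase (AhypoNutrisol_DN5822_c0_g1_i1), a photosystem II core complex protein (AhypoNutrisol_DN5244_c0_g1_i1), a transcript described as omega-3 fatty acid chloroplastic (AhypoNutrisol_DN8048_c0_g1_i1), a chlorophyll a-b binding protein (AhypoNutrisol_DN5199_c0_g1_i1) and a transcript described as ribulose bisphosphate carboxylase oxygenase (AhypoNutrisol_DN7439_c0_g1_i1). All 5 descriptions place the protein in the chloroplast, but the share of such descriptions among the 495 candidates was not counted. Their log2FC ran from -1.95 to -1.18 under salt and from -3.10 to -2.05 under water deficit.

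For alanine-glyoxylate aminotransferase 2 homolog 1 the closest 5 had r from 0.938 to 0.964. They were a methyl-binding domain protein 11-like (AhypoNutrisol_DN1383_c0_g1_i1), a cysteine proteinase RD21A-like (AhypoNutrisol_DN8107_c0_g3_i1), cation transport regulator-like protein 2 (AhypoNutrisol_DN905_c0_g1_i1), inactive beta-amylase 9 (AhypoNutrisol_DN522_c0_g2_i1) and a dormancy auxin associated protein (AhypoNutrisol_DN6256_c0_g1_i1). Their log2FC ran from 1.01 to 1.99 under salt and from 1.15 to 2.20 under water deficit. Between the stresses it ran from -0.15 to 0.39, which spans the 0.23 of the aminotransferase.

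Markers of green leaf tissue moved with alanine aminotransferase 2. The 16 transcripts described as chlorophyll a-b binding proteins or small subunits of ribulose bisphosphate carboxylase, all tested, with 1 of the 16 at 0 in water deficit 2 and none at 0 in the other libraries, summed to 520, 739 and 758 CPM in control, 169, 154 and 122 CPM under salt and 72.3, 75.3 and 73.0 CPM under water deficit. The groups did not overlap, in the same order as for alanine aminotransferase 2. They too came from the study's tables of transcripts that it called changed under salt in these libraries. A change of each marker under salt was thus a condition of its choice. Their part in the fall of alanine aminotransferase 2 was not tested. Within the water deficit group the marker sums were within 72.3 and 75.3 CPM, while alanine aminotransferase 2 in water deficit 2 was at 16.7 CPM against 8.02 and 8.80. Another 5 transcripts, of which 3 were tested, were described as an RNA-dependent RNA polymerase or as coat protein. Whether they come from viruses or from the plant was not checked. They summed to 54.6 to 79.1 CPM in control, 90.6 to 361 CPM under salt and 42.8 to 150 CPM under water deficit. Their part was not tested either.

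**Figure D5:**
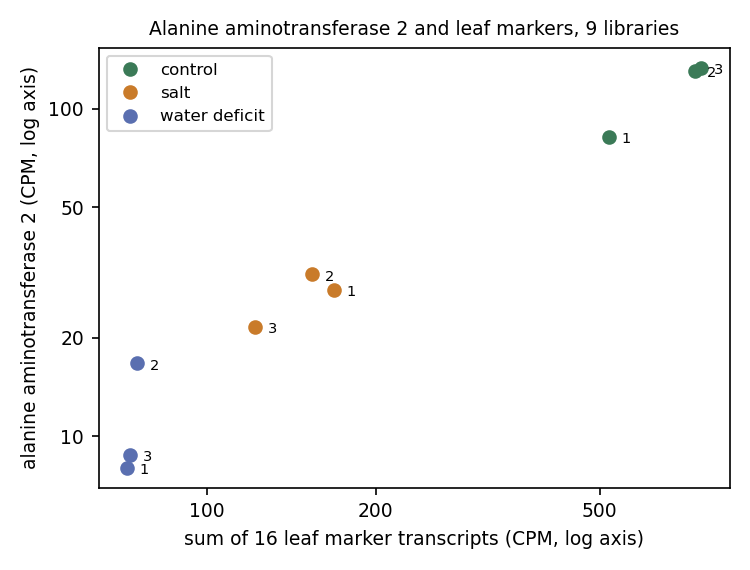
Alanine aminotransferase 2 (y axis) against the sum of 16 leaf marker transcripts (x axis) in each of the 9 *A. hypochondriacus* libraries, both in CPM on log axes; points are libraries with their replicate number, coloured by group. Control lies at 520 to 758 CPM of markers, salt at 122 to 169 and water deficit at 72.3 to 75.3.

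In *A. hybridus* the study's annotation gives the description alanine-glyoxylate aminotransferase 2 homolog to Ahybridus_DN9183_c0_g1_i1. It stood at 2.30, 1.35 and 2.61 CPM in control, from 23, 26 and 231 counts, at 2.20, 2.14 and 1.83 CPM under salt, from 22, 34 and 50 counts, and at 7.28, 5.01 and 3.87 CPM under water deficit, from 141, 114 and 52 counts. Control and salt overlapped, and all water deficit libraries were above both. The log2FC under salt was -0.05 ± 0.32 (FDR = 0.981), with a 95% interval from -0.74 to 0.64, in a comparison where 0.0103% of 9686 tested transcripts were called. Under water deficit it was 1.35 ± 0.31 (FDR = 0.0135), beside 4.23% called, 0.960% called higher and 10.7% without overlap in that direction. Between the stresses it was 1.40 ± 0.31 (FDR = 0.0200), beside 2.12% called, 0.258% called higher and 9.79% without overlap. Neither passed the FDR limit of 0.01, and both were called without water deficit 3, at 1.53 (FDR = 0.00276) and 1.61 (FDR = 0.00356).

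Control 3 of *A. hybridus* stood apart, with a TMM factor of 4.95 and 85.9% of its counts in the 20 most abundant transcripts, against 95.6% to 98.7% in the other libraries of the species. Without it the log2FC of Ahybridus_DN9183_c0_g1_i1 was 0.22 (FDR = 0.977) under salt and 1.62 (FDR = 0.0164) under water deficit. In *A. hypochondriacus* the 95% interval for alanine-glyoxylate aminotransferase 2 homolog 1 under salt was 0.94 to 2.09. The species were fitted separately on their own assemblies, and no test compared them. For alanine aminotransferase 2, no *A. hybridus* transcript was examined.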

How the data were processed

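The authors trimmed single-end reads of 75 bases with Trimmomatic, assembled each species with Trinity, removed near-identical transcripts with CD-HIT, and mapped each library with Bowtie2 2.3.0, keeping reads with a single place. The deposited values are raw read counts for each transcript, not normalized. Alignments in both orientations were counted, so sense and antisense reads cannot be told apart. Every per-sample column was used. Tests were run with edgeR 4.0.16 (glmQLFit and glmQLFTest, TMM factors, default filterByExpr) under R 4.3.3, using limma 3.58.1, with DESeq2 1.42.0 as an alternative. Tables and plots were made with pandas 2.3.3, numpy 2.4.6 and matplotlib 3.10.9 (Python 3.11.15). Each species had 1 fit of 9 libraries with 6 residual degrees of freedom and Benjamini-Hochberg adjustment over all tested transcripts. The study's own test, edgeR's exact test, was an alternative, kept at the log2FC limit of 1. The study itself used a limit of 2 in either direction, which was tried here as a separate alternative with the quasi-likelihood test. Standard errors are the absolute log2FC over the square root of F. The calculation was tested on simulated data. Within groups no pair of libraries was alike within sampling noise. Transcripts named are the 2, those of the 4 lists, those of the same Trinity clusters and the *A. hybridus* counterpart. Outside these, the 5 most like each of the 2 are named, with a mean of at least 1 log2 CPM (prior count 2). The 2 transcripts and the lists were chosen with earlier results of these data known. No sequence of the assemblies was used here.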

Additional observations from a re-analysis of the deposited data

How the results depend on the processing

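The falls of alanine aminotransferase 2 and the rises of alanine-glyoxylate aminotransferase 2 homolog 1 against control kept their direction under the 13 other settings and the 9 fits with 1 library left out, and were called in all except that a limit of 2 on the absolute log2FC ended both rises (1.51 and 1.75). Left-out ranges of log2FC for alanine aminotransferase 2 were -2.29 to -1.97 under salt, -3.76 to -3.18 under water deficit and -1.68 to -1.09 between the stresses. For alanine-glyoxylate aminotransferase 2 homolog 1 they were 1.34 to 1.78, 1.51 to 2.02 and -0.0106 to 0.43. The call of alanine aminotransferase 2 between the stresses was lost with the limit of 2 (-1.29), in the fit of 6 libraries (-1.27), with upper-quartile factors (-1.23) and with a filter of CPM above 1 in 3 libraries (-1.24). Its FDR over all alternatives ran from 5.62e-05 to 0.0632. Scaling by library totals alone moved the median log2FC of all tested transcripts to 0.77, 0.38 and -0.38 in the 3 comparisons, so that 1080 were called higher and 205 lower under salt (439 and 822 with TMM), 335 and 316 under water deficit (342 and 864) and 65 and 265 between the stresses (217 and 293). It reversed alanine-glyoxylate aminotransferase 2 homolog 1 between the stresses to -0.19, as did leaving out water deficit 1 (-0.0106). Upper-quartile factors gave a median of 0.16 under water deficit, 506 called higher and 712 lower there, and 275 and 230 between the stresses.

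Transcripts called numbered 438, 454 and 128 with the limit of 2, against 1261, 1206 and 510, and 651 and 330 under water deficit and between the stresses with library totals. An FDR of 0.05 gave 893 between the stresses. Leaving out 1 library gave 920 to 1482, 789 to 1580 and 106 to 982. The difference between the stresses in the log2 ratio of the 2 ran from -2.13 to -1.03, with water deficit 2 and 1 left out, and the differences from control from -3.77 to -3.43 and from -5.71 to -4.62. The *A. hybridus* homolog passed under water deficit with an FDR of 0.05 (1.35), the exact test of 9 libraries (1.35) and upper-quartile factors (1.51), though library totals gave 0.0058. Between the stresses it passed with an FDR of 0.05 (1.40) and the exact test of 9 (1.41) or 6 libraries (1.39). Its value under salt turned to 0.0391 with upper-quartile factors, was -1.17 with library totals, and ranged from -0.29 to 0.22 with a library left out; the other ranges were 1.08 to 1.62 and 1.14 to 1.61.

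No pairing by number was seen or excluded. The deviations of same-numbered *A. hypochondriacus* libraries correlated at -0.087 to 0.059, and 3 of 9 libraries correlated best with their own number. With the number as a replicate block, 1173, 1114 and 416 transcripts were called. Alanine aminotransferase 2 had log2FC of -2.08, -3.42 and -1.34, all called, alanine-glyoxylate aminotransferase 2 homolog 1 had 1.51, 1.76 and 0.25, and the *A. hybridus* homolog -0.04, 1.32 and 1.36. Within numbers the log2 ratio of the 2 differed by -3.59, -5.08 and -1.49.

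For the 96 other values of named transcripts, 1923 of 2112 alternatives changed neither direction nor call, 156 ended a call, 15 gave one and 18 reversed a value that had not been called. With library totals these were mitochondrial aspartate aminotransferase (0.33), serine-glyoxylate aminotransferase (0.57), glutamate decarboxylase 4 (0.0233), catalase-2 (0.35) and hydroxypyruvate reductase (0.14) under salt, and between the stresses the methyl-binding domain protein (-0.15), branched-chain amino acid aminotransferase 2 (-0.18), the dormancy auxin associated protein (-0.15), glutamate-glyoxylate aminotransferase 2 (-0.16) and polyamine oxidase 2 (-0.0587). The rest were between the stresses. Upper-quartile factors gave 0.0048 for glycine dehydrogenase. With 1 library left out, the values ran from -0.11 (without water deficit 1) to 0.44 for branched-chain amino acid aminotransferase 2, from -0.0212 (without water deficit 3) to 0.83 for NADH-glutamate synthase 1, from -0.0509 (without water deficit 1) to 0.86 for glutamate synthase 1, from -0.13 to 0.0496 (without water deficit 3) for glycine dehydrogenase, and from -0.43 to 0.16 for glutamate decarboxylase 4, above 0 without salt 3, water deficit 1 or water deficit 3. No cause of change was tested. Counts of 17 to 34 in control limit the precision for alanine-glyoxylate aminotransferase 2 homolog 1.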
